A study of Mus musculus with 64 samples.

Results

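Glucose handling was described in microglia through 32 genes of glucose uptake, glycolysis, lactate handling and pyruvate entry into mitochondria. They were taken by symbol, from the glucose transporters to the kinases of pyruvate dehydrogenase, and the rule used no expression value. All 32 were found among the 49671 genes of the count table, 1 row each, and all 32 passed the filter on low counts in every comparison. The 64 libraries held total RNA, depleted of ribosomal RNA, of cells captured with magnetic beads against CD11b from hippocampus or frontal cortex of adult male C57BL/6 mice (the C57BL6/N substrain in the study's methods) without a transgene. They fell into 16 groups of 4 libraries by region, by the phase label Day or Night, and by the condition label Soci, Cogn, Ctr0 or Ctr1, whose meaning the labels do not give. CD11b is carried by microglia and by other myeloid cells, so border macrophages could be captured with them. The light cycle was inverted, with darkness during working hours. The study took microglia in the light and in the dark phase and speaks of day and night, while the labels give Day and Night without naming the light. The labels do not say whether libraries with one replicate number came from separate mice or whether both regions came from the same mice, so p-values measure the spread between these libraries.

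Glycolysis splits glucose into pyruvate in the cytosol. Glucose enters through carriers of the Slc2a family, hexokinases trap it by phosphorylation, and phosphofructokinase commits it to the pathway. Enzymes from triose phosphate isomerase to pyruvate kinase carry out the steps that return ATP. Pyruvate is then either reduced to lactate and exported by carriers of the Slc16a family or oxidised by pyruvate dehydrogenase, which the Pdk kinases switch off. Microglia draw on both routes, and a shift toward glycolysis is a known feature of activated macrophages.

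Library totals ran from 10156071 to 84472229 counts, from 11615344 upward in hippocampus and up to 26326521 in frontal cortex. One transcript, Gm26917, held 34.7% of all counts, and 3 others, Gm42418, mt-Rnr2 and Gm23935, held over 1% each. These were taken as loci holding ribosomal RNA reads. Together they held from 30.3% to 60.9% of the counts of a library, which bears on scaling by library totals alone. Values are CPM, counts per 1000000 of the library's total, on totals scaled by TMM, and a floor of 3 counts was worth between 0.0310 and 0.316 CPM per library, covering counting error only. The lowest count of any of the 32 genes was 3, for Pdk4, and the next lowest was 56, for Pfkp. The 10 microglia markers, P2ry12, Tmem119 and Cx3cr1 among them, summed to medians between 14562 and 18550 CPM in the sets of 16 libraries, and so go with the label. Genes of the clock differed between the phases in both regions. Nr1d1, a repressor of the clock, averaged 4.23 CPM in Day and 15.97 in Night in hippocampus, and 3.84 and 13.8 in frontal cortex. Cry1 was higher in Day by 1.29 and 1.25 on the log2 scale in hippocampus and frontal cortex, and Per2 by 1.12 and 1.27. Arntl was lower in Day, by log2 -0.54 and -0.64. Whether Day stands for the light or the dark phase was not tested with these genes. Directions given here follow the labels Day and Night only.

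The bases before the transcription start are shown for 4 genes, picked as examples that hold a motif described here. Of the genes that passed between Day and Night in hippocampus, 9 had a window wholly outside the annotated gene, and 6 of these 9 windows held a motif. Those of Pdk2 and Pgam1 also did and are not shown, and those of Hk1, Eno1 and Pdk1 did not. This count leaves out genes that did not pass, such as Hk3, whose window outside the gene held a motif too. A link between a motif and a change was not tested. Shown are Hk2 at chr6:82774455-82774704 on the minus strand, Pfkm at chr15:98092339-98092588, Pgk1 at chrX:106186850-106187099 and Slc16a1 at chr3:104638414-104638663, the last 3 on the plus strand. Each window holds the 250 bases before the start, 5′ to 3′ on the strand of the gene, as RefSeq gives them for GRCm38.p6. Capitals mark CACGTG, the core bound by clock factors such as the product of Arntl, and also the shorter ACGTG on either strand, a core bound by the hypoxia factor encoded by Hif1a. Capitals that end in T are the shorter sequence read on the opposite strand.
Hk2: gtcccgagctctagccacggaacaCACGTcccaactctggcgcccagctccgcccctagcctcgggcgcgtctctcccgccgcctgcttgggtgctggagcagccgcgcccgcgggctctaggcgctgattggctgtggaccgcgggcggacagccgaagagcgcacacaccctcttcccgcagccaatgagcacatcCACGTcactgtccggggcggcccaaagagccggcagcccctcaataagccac
Pfkm: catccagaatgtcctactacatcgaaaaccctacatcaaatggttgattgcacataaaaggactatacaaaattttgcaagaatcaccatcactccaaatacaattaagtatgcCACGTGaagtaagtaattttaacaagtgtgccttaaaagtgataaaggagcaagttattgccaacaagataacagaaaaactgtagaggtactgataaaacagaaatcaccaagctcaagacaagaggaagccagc
Pgk1: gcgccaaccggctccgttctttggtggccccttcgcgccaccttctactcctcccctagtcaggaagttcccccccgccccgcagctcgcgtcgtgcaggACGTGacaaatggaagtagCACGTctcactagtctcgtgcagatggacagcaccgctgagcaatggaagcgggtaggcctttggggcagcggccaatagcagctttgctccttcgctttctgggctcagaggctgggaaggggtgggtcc
Slc16a1: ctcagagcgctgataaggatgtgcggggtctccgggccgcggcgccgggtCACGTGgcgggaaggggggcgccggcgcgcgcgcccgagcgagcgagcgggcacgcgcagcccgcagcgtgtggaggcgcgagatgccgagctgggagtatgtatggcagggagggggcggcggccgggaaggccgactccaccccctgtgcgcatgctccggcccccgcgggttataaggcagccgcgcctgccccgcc

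Of the 32 genes, 31 had at least 1 such window, 46 windows in all, and Slc2a3 had no entry. CACGTG lay in 8 of the 46 windows (17.4%) and in 6.02% of the 32851 windows of all genes. The shorter sequence, counted outside the longer one, lay in 16 of the 46 (34.8%) and in 11.4% of all. Windows of the same gene can overlap, so the 46 are not independent, and a match is a description of letters, not a bound site. Of the 3 other windows of Pfkm, 1 held the shorter sequence and none the longer. The window of Slc2a1 held ACGTG once, and those of Slc2a5, Tpi1, Pfkp and Pdk4 held neither sequence.

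Exon length was that of all annotated exons of a gene merged, 1570 bases for Ldhb, 4133 for Gapdh and 13401 for Pfkp. A main transcript can be shorter, so the order of genes depends on the annotation. Per exon length, the fructose carrier Slc2a5 was highest, with 63.99 ± 12.2 CPM per kb of exon (SD, n = 64), followed by the lactate dehydrogenase subunit Ldhb with 57.8 ± 7.04 and the glucose carrier Slc2a1 with 55.6 ± 21.3. These 3 means lay within 1 SD of each other. Aldoa, the aldolase of glycolysis, followed with 34.7 ± 4.85, Hk2 with 29.0 ± 5.13, Gapdh with 27.8 ± 4.04 and Pkm with 21.04 ± 2.88. Hk2 and Gapdh lay within 1 SD of each other, and Aldoa within 1 SD of the widely spread Slc2a1. At the low end stood the carrier Slc2a3 with 1.54 ± 0.54, the regulator Pfkfb2 with 1.43 ± 0.23, the platelet-type phosphofructokinase Pfkp with 0.99 ± 0.48 and the kinase Pdk4 with 0.44 ± 0.28.

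**Figure D1:**
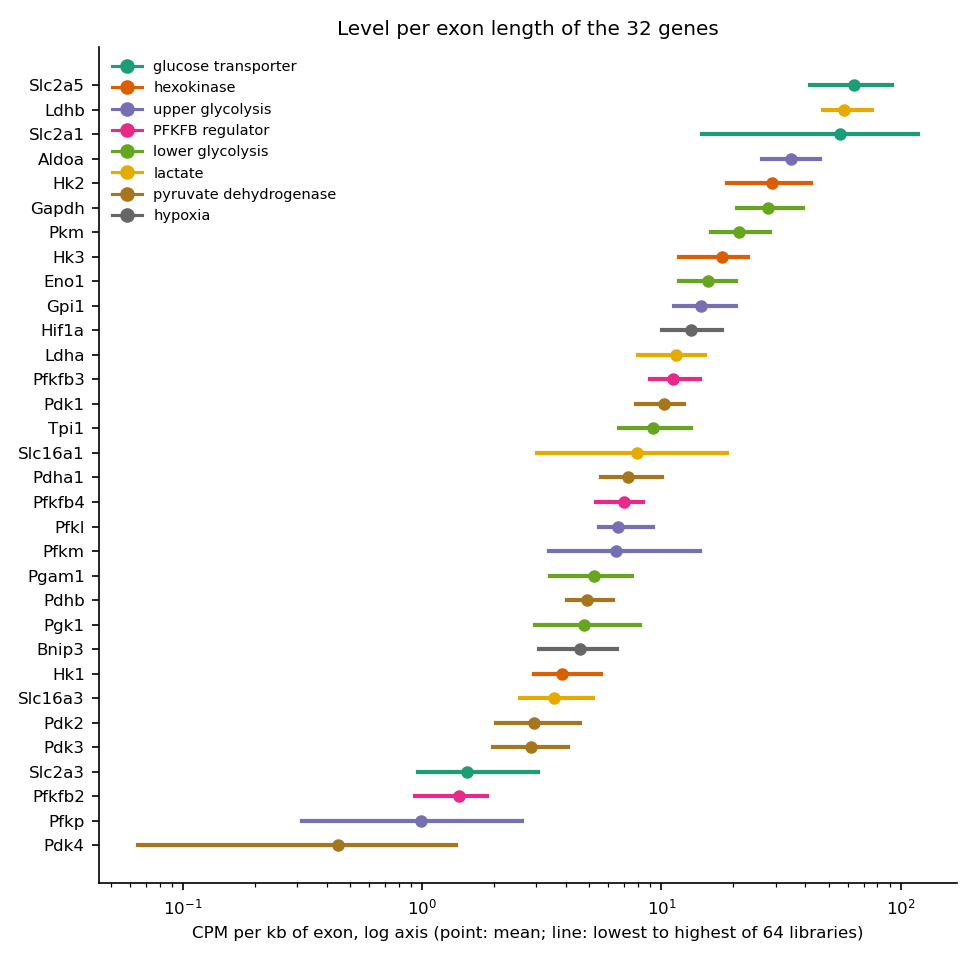
Level of each of the 32 genes in CPM per kb of exon on a log axis, with the mean as a point and a line from the lowest to the highest of 64 libraries, coloured by pathway step. Slc2a5, Ldhb and Slc2a1 lie at the top, and Slc2a1 and Pdk4 have among the longest lines.

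In several families of related proteins 1 member held most of the RNA per exon length, and these shares depend on the same annotated lengths. Ldhb, the subunit that favours lactate as a substrate, held between 83.2% and 83.7% of the lactate dehydrogenase level in the 4 sets of region and phase, and Ldha the rest. Pfkfb3, which makes the strongest activator of phosphofructokinase, held between 56.3% and 57.8% of the PFKFB level. Pdk1 held between 56.7% and 65.4% of the level of the 4 pyruvate dehydrogenase kinases, and Pdk4 between 1.54% and 3.93%. Among the hexokinases Hk2 led, with 62.4% ± 2.59 in Day and 52.1% ± 2.53 in Night in hippocampus (SD, n = 16), and 61.4% ± 3.00 and 51.2% ± 3.20 in frontal cortex. In hippocampus the lowest Day share of Hk2 was 58.7% and the highest Night share 59.2%, and in frontal cortex the lowest Day share of 55.9% lay above the highest Night share of 55.7%. In hippocampus Hk3, the hexokinase of myeloid cells, held 30.8% in Day and 38.1% in Night, and the widely expressed Hk1 6.82% and 9.73%.

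The main comparison asked how microglia differ between Day and Night in each region, with the 4 conditions pooled and 16 libraries per phase. The 3 Slc2a carriers, of which Slc2a5 carries fructose, and Hk2 were higher in Day in both regions. Over the Ctr0 and Ctr1 libraries alone, Slc2a1 turned to the other direction in hippocampus, without passing. The phosphofructokinases Pfkm and Pfkp, the lactate carriers and Pdk4 were lower in Day in both regions. All genes from Tpi1 to Pkm were lower in Day in hippocampus, where in frontal cortex Tpi1 alone of these passed the test. By edgeR's quasi-likelihood test with Benjamini-Hochberg adjustment, 21 of the 32 genes passed in hippocampus (5 higher and 16 lower in Day), against a background of 42.2% of the 15527 genes tested. Of all genes 23.4% were higher in Day and 18.8% lower. In frontal cortex 12 passed, 4 of them higher and 8 lower, against a background of 41.8% of all genes, made up of 20.6% higher and 21.3% lower. The share of the 32 genes that passed was 65.6% in hippocampus and 37.5% in frontal cortex. Their median log2 change of Day over Night was -0.18 in hippocampus, where that of all genes was 0.02, and -0.02 in frontal cortex, where that of all genes was also -0.02. The 12 genes of frontal cortex all passed in hippocampus too, in the same direction, 9 passed in hippocampus alone and 11 in neither. Scaling by library totals alone moved the median of all genes to -0.14 and -0.09 and turned the split of calls from 3637 higher and 2913 lower to 265 and 4023 in hippocampus, and from 3084 and 3183 to 656 and 3405 in frontal cortex, so every change here is relative to the TMM scale. Of the 32 genes, 22 then passed in hippocampus, 2 higher (Hk2 and Slc2a3) and 20 lower, and 11 in frontal cortex, 3 higher and 8 lower. Counts per gene come from all cells of a library, so fewer cells of a type and less RNA per cell cannot be told apart.

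**Figure D2:**
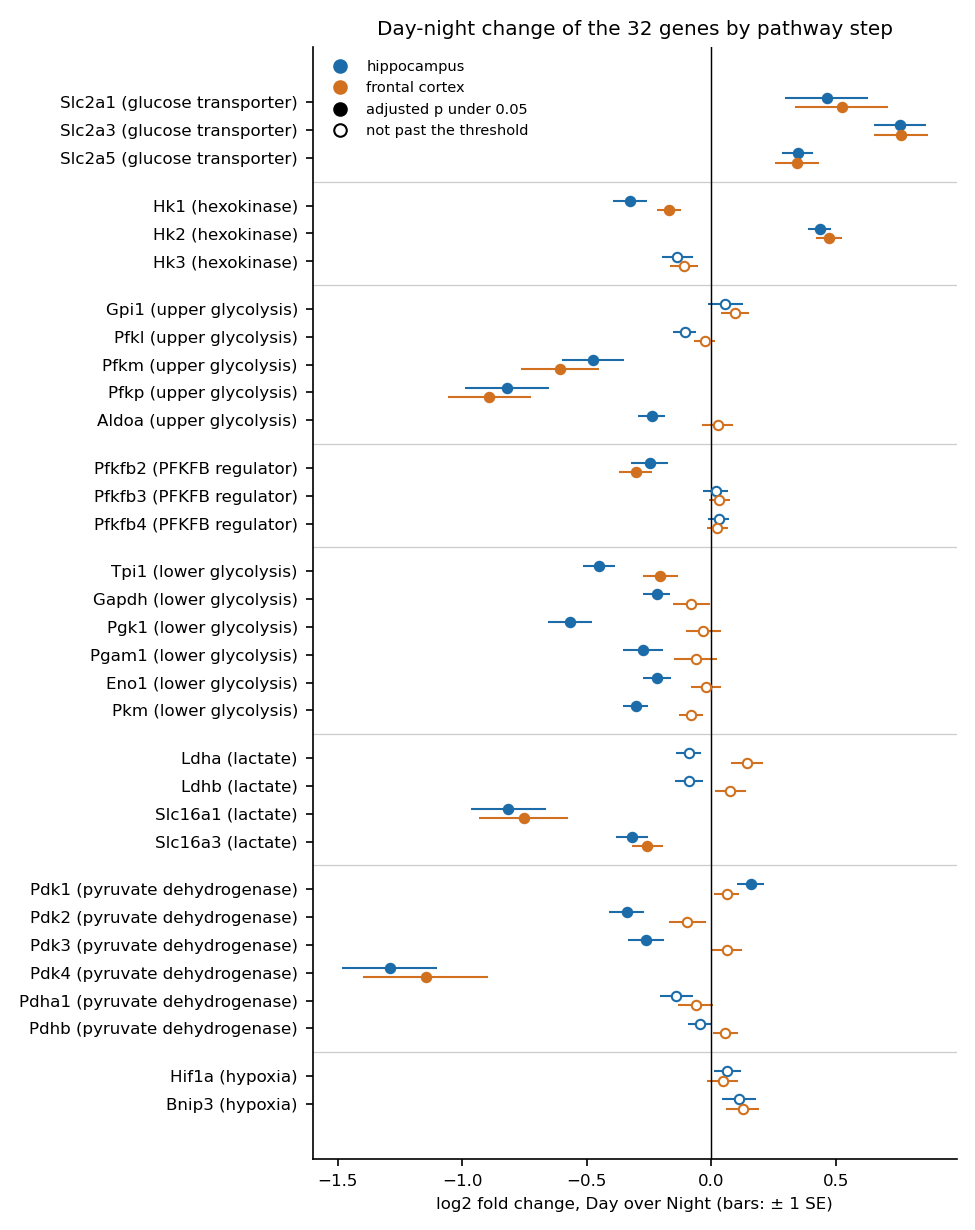
Log2 fold change of Day over Night for each of the 32 genes, ordered by pathway step, with bars of 1 SE in hippocampus and frontal cortex and filled points for adjusted p under 0.05 in edgeR. In both regions the Slc2a carriers and Hk2 lie right of 0. The lower glycolysis genes lie left of 0 in hippocampus and near 0 in frontal cortex except Tpi1.

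Markers of other cells moved with the phase. Summed markers of neurons had medians of 206 CPM in Day and 297 in Night in hippocampus (ranges 109 to 373 and 143 to 712) and of 178 and 349 in frontal cortex (102 to 328 and 149 to 745), with 4 and 9 of the 10 genes lower in Day. Astrocyte markers had medians of 396 and 571 CPM in hippocampus (325 to 522 and 339 to 1793) and 449 and 786 in frontal cortex (324 to 611 and 282 to 2359), with 6 of 8 genes lower in Day in each region and 1 higher in hippocampus. Both medians were lower in Day in both regions. Choroid plexus markers had medians of 267 and 1642 CPM in hippocampus (1.65 to 915 and 11.5 to 2913), with 8 of 8 genes lower in Day, and of 23.1 and 89.0 in frontal cortex (6.77 to 456 and 8.25 to 323), with none of the 4 tested passing. These choroid plexus genes were thus scarce in frontal cortex and in some hippocampal libraries. Oligodendrocyte markers had medians of 155 and 228 CPM in hippocampus (115 to 202 and 153 to 484) and 147 and 223 in frontal cortex (101 to 261 and 115 to 391), with 6 and 3 of 7 genes lower in Day. Endothelial markers had medians of 631 and 769 CPM in hippocampus (265 to 939 and 540 to 1465) and 626 and 719 in frontal cortex (284 to 902 and 212 to 1849), with 6 and 1 of 8 lower in Day. Microglia markers moved the other way, with 8 and 5 of 10 genes higher in Day, and so did border macrophage markers, with medians of 332 and 167 CPM in hippocampus (197 to 423 and 99.7 to 220), 378 and 223 in frontal cortex (221 to 457 and 122 to 315), and 7 and 6 of 7 genes higher in Day. Neutrophil and monocyte markers had medians between 19.6 and 35.8 CPM, with 1 of 4 tested higher and 1 lower in hippocampus and none in frontal cortex. Red blood cell markers had medians of 43.9 and 80.6 CPM in hippocampus and 42.8 and 78.5 in frontal cortex, where 5 of 5 were lower in Day. No marker of these lists was at 0 in all libraries. A second fit carried the summed markers of neurons, astrocytes, oligodendrocytes, endothelial cells and choroid plexus as 5 terms. It kept 8 of the 21 calls in hippocampus, 4 of the 5 genes higher and 4 of the 16 lower in Day, and 6 of the 12 in frontal cortex, 3 of the 4 higher and 3 of the 8 lower. It also made 2 calls in each region that the first fit did not make, Hk3 and Bnip3 in hippocampus and Hk3 and Gpi1 in frontal cortex. Among all genes, calls fell too with the 5 terms, from 6550 to 3000 in hippocampus and from 6267 to 3113 in frontal cortex. The hippocampal calls went from 3637 rises and 2913 falls to 1913 and 1087. The cortical calls went from 3084 rises and 3183 falls to 1698 and 1415. These totals include any new calls, so the share of calls kept among all genes is not given by them. The markers of border macrophages were not among these terms, and their part in the results was not tested.

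**Figure D3:**
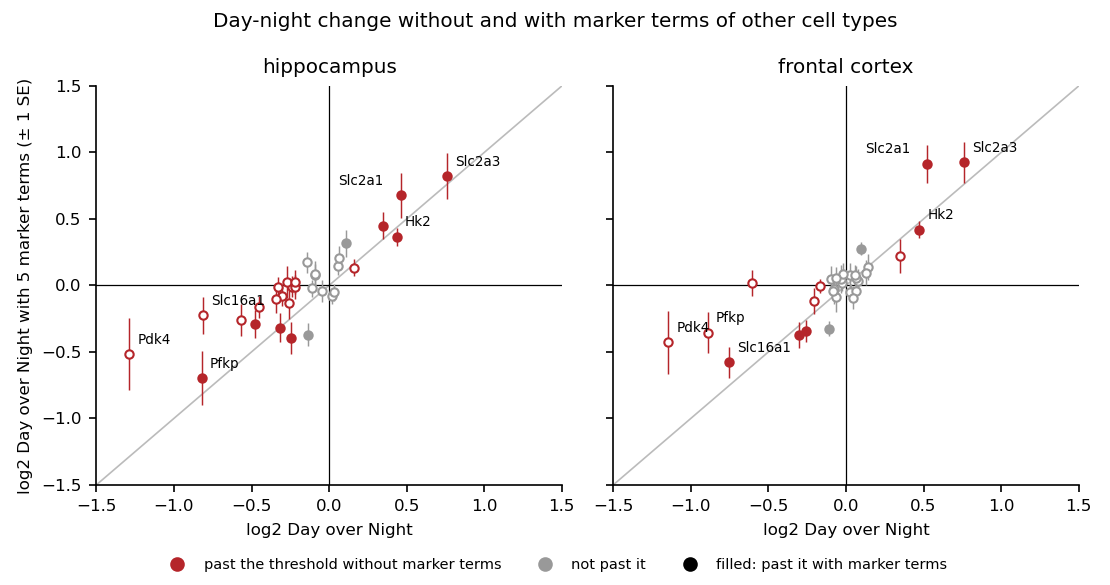
Log2 fold change of Day over Night without (horizontal) and with (vertical, bars of 1 SE) the 5 marker terms, 1 point per gene, red where the gene passed without the terms and filled where it passed with them. Slc2a1, Slc2a3 and Hk2 stay near or above the diagonal in both regions, while Pdk4 lies nearer 0 with the terms.

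The 3 Slc2a carriers were higher in Day with the conditions pooled. Slc2a3 (ENSMUSG00000003153, GRCm38 chromosome 6, 122727809 to 122801640, minus strand) encodes GLUT3, a carrier with high affinity for glucose that is best known in neurons. In hippocampus it ran from 7.88 over a median of 14.0 to 17.5 CPM in Day (lowest, median and highest of 16 libraries, as for each gene that follows) and from 6.97 over 7.59 to 11.8 in Night. The fold was 1.69, log2 0.76 ± 0.10 (SE), with an adjusted p of 5.99e-07 in edgeR, and 11 of the 16 Day libraries lay above every Night library. In frontal cortex the values ran from 8.83 over 14.4 to 22.1 CPM in Day and from 7.08 over 8.48 to 10.6 in Night, a log2 change of 0.76 ± 0.11 (SE) with an adjusted p of 2.18e-06 in edgeR. There 14 Day libraries lay above all of Night, and the change was as large with the 5 marker terms, 0.82 in hippocampus and 0.92 in frontal cortex.

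Slc2a5 (ENSMUSG00000028976, chromosome 4, 150119283 to 150144169, plus strand) encodes GLUT5, a fructose carrier that microglia are known to express. It ran from 196 over 227 to 275 CPM in Day and from 157 over 183 to 236 in Night in hippocampus, log2 0.35 ± 0.06 (SE, edgeR adjusted p = 2.77e-05). In frontal cortex the values ran from 201 over 244 to 314 in Day and from 142 over 181 to 291 in Night, log2 0.35 ± 0.09 (SE, edgeR adjusted p = 0.00222). The phases overlapped in both regions, with 6 and 3 Day libraries above all of Night. In neither region did the phases separate. With the marker terms the log2 change was 0.45 in hippocampus and 0.22 in frontal cortex, where it no longer passed (edgeR adjusted p = 0.228). With library totals alone as scaling it missed the threshold in both regions, at log2 0.18 and 0.27 (edgeR adjusted p = 0.163 and 0.0501).

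Slc2a1 (ENSMUSG00000028645, chromosome 4, 119108711 to 119137983, plus strand) encodes GLUT1, the basal glucose carrier of endothelium and glia. In hippocampus it ran from 94.5 over 228 to 415 CPM in Day and from 103 over 173 to 282 in Night, and in frontal cortex from 121 over 228 to 343 in Day and from 51.9 over 151 to 339 in Night. The log2 change was 0.46 ± 0.17 (SE) in hippocampus and 0.52 ± 0.19 in frontal cortex, with adjusted p of 0.0235 and 0.0246 in edgeR. The ranges overlapped in both regions, with 4 Day libraries above all of Night in hippocampus and 1 in frontal cortex. Over the libraries of Ctr0 and Ctr1 alone the log2 change was -0.20 in hippocampus (edgeR adjusted p = 0.491), against the direction over all conditions, and 0.15 in frontal cortex (edgeR adjusted p = 0.747). With the marker terms the log2 change was 0.68 in hippocampus and 0.92 in frontal cortex (edgeR adjusted p = 0.00592 and 2.94e-05). Library totals alone as scaling ended the hippocampal call at log2 0.36 (edgeR adjusted p = 0.12). It was also lost without replicate 1, 3 or 4, at log2 0.41, 0.38 and 0.38 with adjusted p of 0.131, 0.132 and 0.0667 in edgeR, and in frontal cortex without replicate 1 or 4, at log2 0.54 and 0.48 with 0.0858 and 0.0868.

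**Figure D4:**
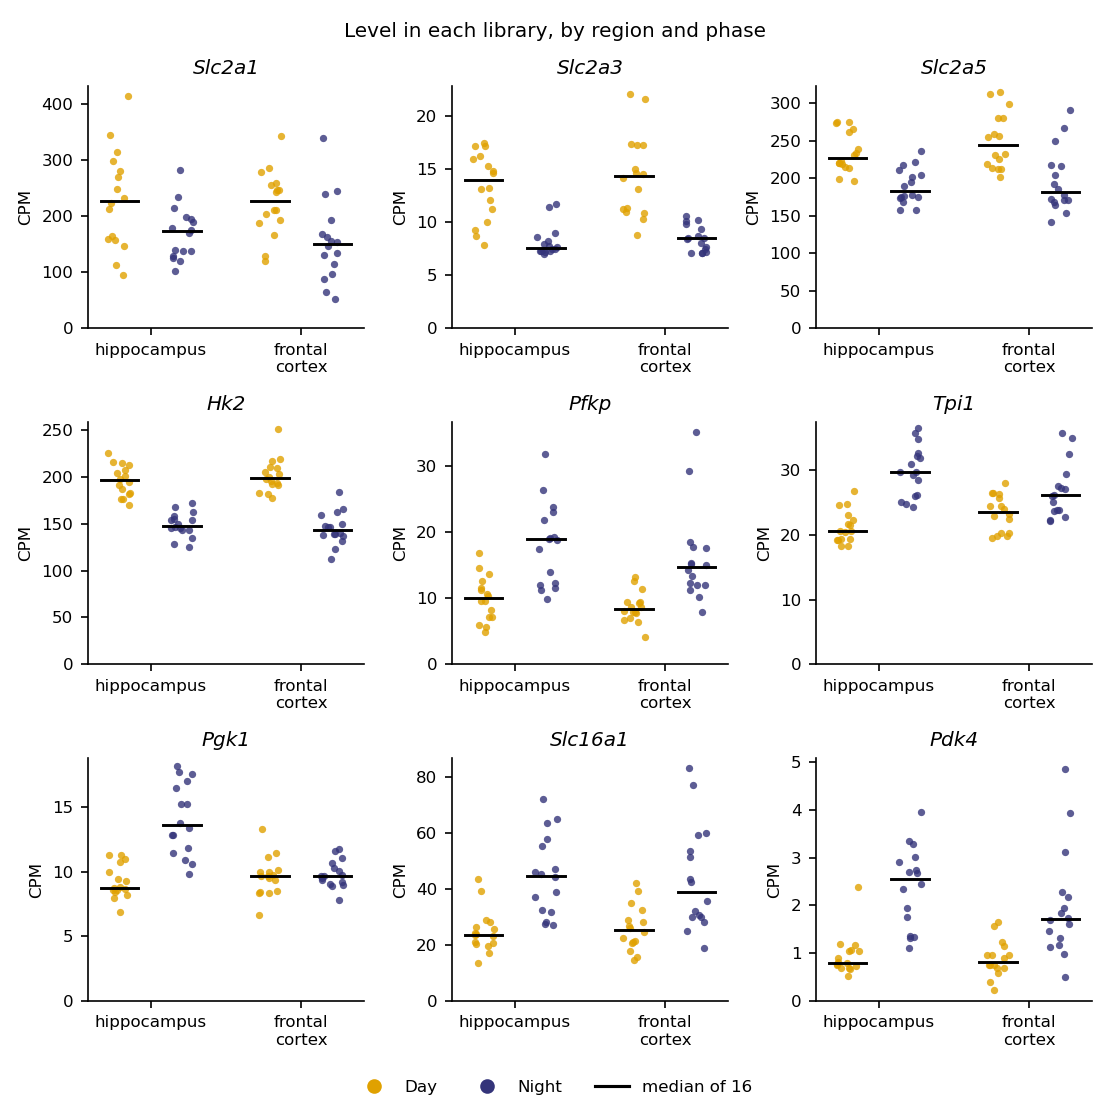
CPM of 9 genes in each of the 64 libraries, by region and phase, with a bar at the median of 16. Slc2a3 and Hk2 Day points stand above nearly all Night points in both regions, the Pgk1 phases differ in hippocampus and coincide in frontal cortex, and the Slc2a1 phases overlap.

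The hexokinases split. Hk2 (ENSMUSG00000000628, chromosome 6, 82725025 to 82774454, minus strand), the inducible form bound to mitochondria, ran from 170 over 196 to 225 CPM in Day and from 125 over 148 to 172 in Night in hippocampus. Its log2 change was 0.43 ± 0.04 (SE), a fold of 1.35, with an adjusted p of 6.2e-09 in edgeR. The frontal cortex values ran from 177 over 199 to 251 CPM in Day and from 112 over 143 to 184 in Night, log2 0.47 ± 0.05 (SE) with an adjusted p of 4.34e-08 in edgeR. In hippocampus 15 of 16 Day libraries lay above every Night library, and in frontal cortex 13. In the fit with marker terms the log2 change was 0.37 and 0.42.

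Hk1 was lower in Day in both regions. It ran from 25.0 over 30.2 to 35.9 CPM in Day and from 29.3 over 40.0 to 47.9 in Night in hippocampus, log2 -0.33 ± 0.07 (SE, edgeR adjusted p = 0.000188). The values in frontal cortex ran from 25.2 over 28.9 to 31.7 in Day and from 27.7 over 32.6 to 39.6 in Night, log2 -0.17 ± 0.05 (SE, edgeR adjusted p = 0.00569). Hk1 is the hexokinase of neurons and most tissues. With the marker terms its log2 change was -0.01 in each region, with the call lost, and whether its change came from other cells was not tested. Over the Ctr0 and Ctr1 libraries alone the cortical call was lost too. Hk3 had log2 values of -0.14 ± 0.06 and -0.11 ± 0.06 (SE) and did not pass (edgeR adjusted p = 0.078 and 0.116), while with the marker terms it passed as lower in Day, at -0.37 and -0.32 (edgeR adjusted p = 0.00374 and 0.000158).

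In the upper steps, 2 of the 3 phosphofructokinase genes were lower in Day. Pfkp (ENSMUSG00000021196, chromosome 13, 6579768 to 6648777, minus strand) ran from 4.90 over 9.97 to 16.9 CPM in Day and from 9.91 over 18.9 to 31.7 in Night in hippocampus, log2 -0.82 ± 0.17 (SE, edgeR adjusted p = 0.000194). In frontal cortex it ran from 4.20 over 8.37 to 13.2 in Day and from 7.99 over 14.7 to 35.1 in Night, log2 -0.89 ± 0.17 (SE, edgeR adjusted p = 8.18e-05). The phases overlapped, with 8 and 7 Day libraries below all of Night. With the marker terms the log2 change was -0.70 in hippocampus and -0.35 in frontal cortex, where the call was lost (edgeR adjusted p = 0.0973).

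Pfkm, the muscle-type isoform, ran from 11.5 over 16.4 to 26.2 CPM in Day and from 14.4 over 24.7 to 48.6 in Night in hippocampus, log2 -0.47 ± 0.13 (SE, edgeR adjusted p = 0.00259). In frontal cortex the values ran from 11.3 over 15.2 to 30.0 in Day and from 15.3 over 24.7 to 43.3 in Night, log2 -0.61 ± 0.16 (SE, edgeR adjusted p = 0.00234). The hippocampal call was lost without replicate 1, and the cortical call over the Ctr0 and Ctr1 libraries alone. In the fit with marker terms the log2 change was -0.29 in hippocampus and 0.02 in frontal cortex. The liver-type isoform Pfkl, the most abundant of the 3 per length in Day, had log2 values of -0.11 ± 0.05 and -0.03 ± 0.04 (SE) and did not pass, while with library totals alone it passed in hippocampus at -0.26 (edgeR adjusted p = 0.0156). Gpi1, which interconverts glucose and fructose phosphates, had 0.06 ± 0.07 and 0.10 ± 0.05 and did not pass either. Reads of Pfkm, Pfkfb2, Pkm and Hif1a can be split with overlapping genes on the same strand, in that order Gm26513, Gm29427, Gm49759 and Gm49321. Aldoa passed in hippocampus, with log2 -0.24 ± 0.05 (SE) there and 0.03 ± 0.06 in frontal cortex.

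The PFKFB enzymes make and break down the fructose bisphosphate that activates phosphofructokinase, which is not the one that phosphofructokinase itself makes. Pfkfb2 was lower in Day in both regions and kept both calls with the marker terms. The frontal cortex values ran from 6.89 over 9.60 to 11.0 CPM in Day and from 9.22 over 11.5 to 12.8 in Night, log2 -0.30 ± 0.07 (SE, edgeR adjusted p = 0.000402), and in hippocampus the log2 change was -0.25 ± 0.07 (SE, edgeR adjusted p = 0.00639). The cortical call was lost over the Ctr0 and Ctr1 libraries alone. Pfkfb3 and Pfkfb4 had log2 values between 0.02 and 0.03 in both regions, with SEs of 0.04 to 0.05, and did not pass.

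All 6 genes of lower glycolysis were lower in Day in hippocampus, and 1 of 6 in frontal cortex. Pgk1 (ENSMUSG00000062070, chromosome X, 106187100 to 106203699, plus strand), the phosphoglycerate kinase of the first ATP-yielding step, ran from 6.86 over 8.76 to 11.3 CPM in Day and from 9.84 over 13.6 to 18.2 in Night in hippocampus. Its log2 change was -0.57 ± 0.09 (SE), a fold of 1.48, with an adjusted p of 3.96e-06 in edgeR, and 11 Day libraries lay below all of Night. In frontal cortex its medians were 9.62 CPM in Day and 9.66 in Night, log2 -0.03 ± 0.07 (SE). Tpi1 (ENSMUSG00000023456, chromosome 6, 124810586 to 124814296, minus strand), which interconverts the triose phosphates, ran from 18.3 over 20.5 to 26.8 CPM in Day and from 24.3 over 29.7 to 36.5 in Night in hippocampus, log2 -0.45 ± 0.06 (SE, edgeR adjusted p = 8.94e-07). There 13 Day libraries lay below all of Night.

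In frontal cortex Tpi1 ran from 19.5 over 23.6 to 28.1 CPM in Day and from 22.2 over 26.1 to 35.8 in Night, log2 -0.21 ± 0.07 (SE, edgeR adjusted p = 0.0193), a call lost without replicate 2 or 4 and over the Ctr0 and Ctr1 libraries alone. The other 4 genes, Gapdh, Pgam1, Eno1 and Pkm, had log2 changes between -0.22 and -0.30 in hippocampus and between -0.02 and -0.08 in frontal cortex, where none passed. The hippocampal medians of pyruvate kinase Pkm were 96.7 CPM in Day and 124 in Night, with 12 Day libraries below all of Night, and those of Gapdh 101 and 128. With the marker terms none of the 6 hippocampal calls of lower glycolysis was kept, and the log2 values lay near 0 for Gapdh (-0.01), Eno1 (0.03) and Pgam1 (0.03) and at -0.26 for Pgk1. Sequence copies of these genes are common. Transcripts of 10 of the 32 genes shared at least 150 bases at 98% identity with another gene, 71 other genes for Gapdh. The copies held at most 1.52% as many counts as the gene itself, for Gapdh, but reads lost to several matching places cannot be counted here.

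Both lactate carriers were lower in Day. Slc16a1 (ENSMUSG00000032902, chromosome 3, 104638668 to 104658462, plus strand) encodes MCT1, which carries lactate and ketone bodies and is abundant in endothelium and glia. In hippocampus it ran from 13.4 over 23.7 to 43.6 CPM in Day and from 27.2 over 44.8 to 72.4 in Night, log2 -0.81 ± 0.15 (SE, edgeR adjusted p = 4.67e-05), with 12 Day libraries below all of Night. In frontal cortex it ran from 14.5 over 25.3 to 42.2 CPM in Day and from 18.8 over 39.1 to 83.3 in Night, log2 -0.75 ± 0.18 (SE, edgeR adjusted p = 0.00119). In the fit with marker terms the log2 change was -0.22 in hippocampus, where the call was lost (edgeR adjusted p = 0.263), and -0.58 in frontal cortex.

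Slc16a3, the lactate exporter MCT4, ran from 13.7 over 16.96 to 19.7 CPM in Day and from 16.004 over 21.7 to 25.2 in Night in hippocampus, log2 -0.32 ± 0.06 (SE, edgeR adjusted p = 0.000153). In frontal cortex the values ran from 14.8 over 17.02 to 19.99 in Day and from 14.1 over 20.2 to 27.6 in Night, log2 -0.26 ± 0.06 (SE, edgeR adjusted p = 0.00125). The ranges overlapped, and both calls were kept with the marker terms, at -0.32 and -0.34. Ldha had log2 values of -0.09 ± 0.05 and 0.14 ± 0.06 (SE), and Ldhb of -0.09 ± 0.06 and 0.08 ± 0.06, and neither passed. With library totals alone as scaling both passed as lower in Day in hippocampus, at log2 -0.25 and -0.24 (edgeR adjusted p = 0.0312 and 0.0338).

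Of the pyruvate dehydrogenase genes, Pdk4 showed the largest change of all 32. Pdk4 (ENSMUSG00000019577, chromosome 6, 5483351 to 5496309, minus strand) is the kinase raised by fasting and fatty acids, and here it was scarce, below the level that the naming rule asked for. In hippocampus it ran from 0.507 over 0.799 to 2.38 CPM in Day and from 1.11 over 2.56 to 3.96 in Night, log2 -1.29 ± 0.19 (SE, edgeR adjusted p = 2.3e-06), with 13 Day libraries below all of Night. The frontal cortex values ran from 0.228 over 0.819 to 1.65 in Day and from 0.488 over 1.72 to 4.85 in Night, log2 -1.15 ± 0.25 (SE, edgeR adjusted p = 0.00048). With the marker terms both calls were lost, at log2 -0.52 and -0.43.

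Pdk2 ran from 6.86 over 8.60 to 11.4 CPM in Day and from 8.62 over 11.6 to 14.4 in Night in hippocampus, log2 -0.34 ± 0.07 (SE, edgeR adjusted p = 0.000203), and in frontal cortex its log2 value was -0.10 ± 0.08. Pdk3 had log2 -0.26 ± 0.07 (SE) in hippocampus and 0.06 ± 0.06 in frontal cortex. Neither hippocampal call was kept with the marker terms. Pdk1, a target of the hypoxia factor and the most abundant kinase of the family, was higher in Day in hippocampus by log2 0.16 ± 0.05 (SE, edgeR adjusted p = 0.018), a call lost under 11 of the 14 alternatives. The subunits Pdha1 and Pdhb of the enzyme itself had log2 values between -0.14 and 0.06, and the hypoxia factor Hif1a and its target Bnip3 between 0.05 and 0.13, and none of these passed in either region. With library totals alone Pdha1 passed in hippocampus, at -0.28 (edgeR adjusted p = 0.0393). Over all genes that did not pass, log2 values ran from -0.14 to 0.11 among 11 in hippocampus and from -0.11 to 0.14 among 20 in frontal cortex.

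A fit of all 64 libraries asked whether the change between phases was the same in both regions. It differed for 4 of the 32 genes, against a background of 1.19% of the 16069 genes tested, and all 4 in the direction of a lower Day level in hippocampus, as for 0.859% of all genes, with 0.33% in the other direction. Pgk1 averaged 9.22 ± 1.28 CPM in Day and 14.1 ± 2.78 in Night in hippocampus, and 9.63 ± 1.52 and 9.83 ± 1.04 in frontal cortex (SD, n = 16). The difference in log2 change was -0.58 ± 0.11 (SE, edgeR adjusted p = 0.002), the largest of the 32 genes in size. Hippocampal Night stood apart from the other 3 sets. Aldoa averaged 95.4 ± 11.5 and 116 ± 10.8 CPM in hippocampus and 97.3 ± 13.7 and 95.4 ± 9.53 in frontal cortex, a difference of -0.31 ± 0.08 (SE, edgeR adjusted p = 0.0347). Pkm averaged 96.2 ± 8.27 and 122 ± 13.5 CPM in hippocampus and 98.6 ± 10.5 and 104 ± 8.54 in frontal cortex, a difference of -0.26 ± 0.07 (SE, edgeR adjusted p = 0.0378). For Pdk3 the difference was -0.36 ± 0.09 (SE, edgeR adjusted p = 0.0316). Of the 4 calls, 1, 0, 2 and 1 were left without replicates 1, 2, 3 and 4, and 1 without a count filter. With the 5 marker terms Pgk1 alone of the 4 passed, at -0.51, while the differences of Aldoa (-0.30), Pdk3 (-0.34) and Pkm (-0.21) had adjusted p of 0.0708, 0.0727 and 0.139 in edgeR. Pdk3 averaged 6.56 ± 0.88 and 8.07 ± 1.14 CPM in hippocampus and 7.50 ± 0.88 and 7.16 ± 0.82 in frontal cortex. Without replicate 2 the adjusted p of Pgk1 missed the threshold while the log2 difference stayed negative. For the other 28 genes a difference between regions was not detected, with 12 of the 32 at an unadjusted p under 0.05.

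The region difference averaged over the phases passed for 6 of the 32 genes, against a background of 16.6% of all genes. Higher in hippocampus were 5 genes, against 10.4% of all genes, namely Pgk1 by log2 0.23 ± 0.06 (SE), Pdk2 by 0.23 ± 0.05, Hk1 by 0.17 ± 0.04, Aldoa by 0.12 ± 0.04 and Pkm by 0.10 ± 0.03. Pfkfb4 was lower in hippocampus, with log2 -0.10 ± 0.03 (SE), against 6.17% of all genes lower. The adjusted p of edgeR ran from 0.000738 for Pdk2 to 0.046 for Pkm. The largest fold was 1.17, for Pgk1. Without replicate 2, 1 of the 32 genes passed, and with library totals alone, which moved the median of all genes to -0.11, 1 passed. None passed with the marker terms, where the log2 values of the 5 genes higher in hippocampus lay between 0.03 and 0.14 and that of Pfkfb4 was -0.06.

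The 4 condition labels were compared within each region, averaged over the phases. None of the 32 genes passed in either region by edgeR, where the lowest adjusted p was 0.668 in hippocampus and 0.719 in frontal cortex, and 0.0% of all genes passed. At an unadjusted p under 0.05 there were 2 of the 32 genes in each region, with 1093 and 1095 of all genes, and DESeq2 called none of the 32 either. With library totals alone as scaling, 8 genes passed in hippocampus, along with 3814 of all genes. The ratio of the highest to the lowest condition mean had a median of 1.10 in hippocampus and 1.12 in frontal cortex. The largest was 1.67, for Slc16a1 in frontal cortex. Slc2a3 in frontal cortex had the lowest unadjusted p in edgeR, 0.0157 before adjustment over all genes, with means of 13.3 CPM in Cogn and 9.92 in Ctr1.

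The same fits asked whether the change between phases depended on the condition, and none of the 32 genes passed in either region by edgeR. The background was 0.0% of all genes in hippocampus and 0.00616% in frontal cortex, and 2 and 3 of the 32 genes had an unadjusted p under 0.05. Slc2a1 in hippocampus had the lowest, with an unadjusted edgeR p of 8.65e-05 and an adjusted p of 0.459. DESeq2 called this 1 gene, with an adjusted p of 0.00418, and over all 10 alternatives its adjusted p ran from 0.00418 to 1.00. Its group values, chosen for display after they were seen, show the pattern behind that test. In hippocampus Day it averaged 271 ± 42.6 CPM in Soci, 319 ± 79.1 in Cogn, 202 ± 51.7 in Ctr0 and 128 ± 29.5 in Ctr1 (SD, n = 4). The Night means were 133 ± 29.1, 175 ± 25.4, 175 ± 57.0 and 200 ± 60.4. Day and Night ranges did not overlap in Soci and Cogn and overlapped in Ctr0 and Ctr1. In frontal cortex Day the means were 257 ± 68.2 in Soci, 258 ± 19.2 in Cogn, 181 ± 52.4 in Ctr0 and 201 ± 54.4 in Ctr1, and in Night 104 ± 35.9, 172 ± 46.9, 118 ± 53.9 and 228 ± 86.5. There too the ranges separated in Soci and Cogn alone, and the mean of Ctr1 was lower in Day, by log2 -0.64 in hippocampus and -0.18 in frontal cortex.

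**Figure D5:**
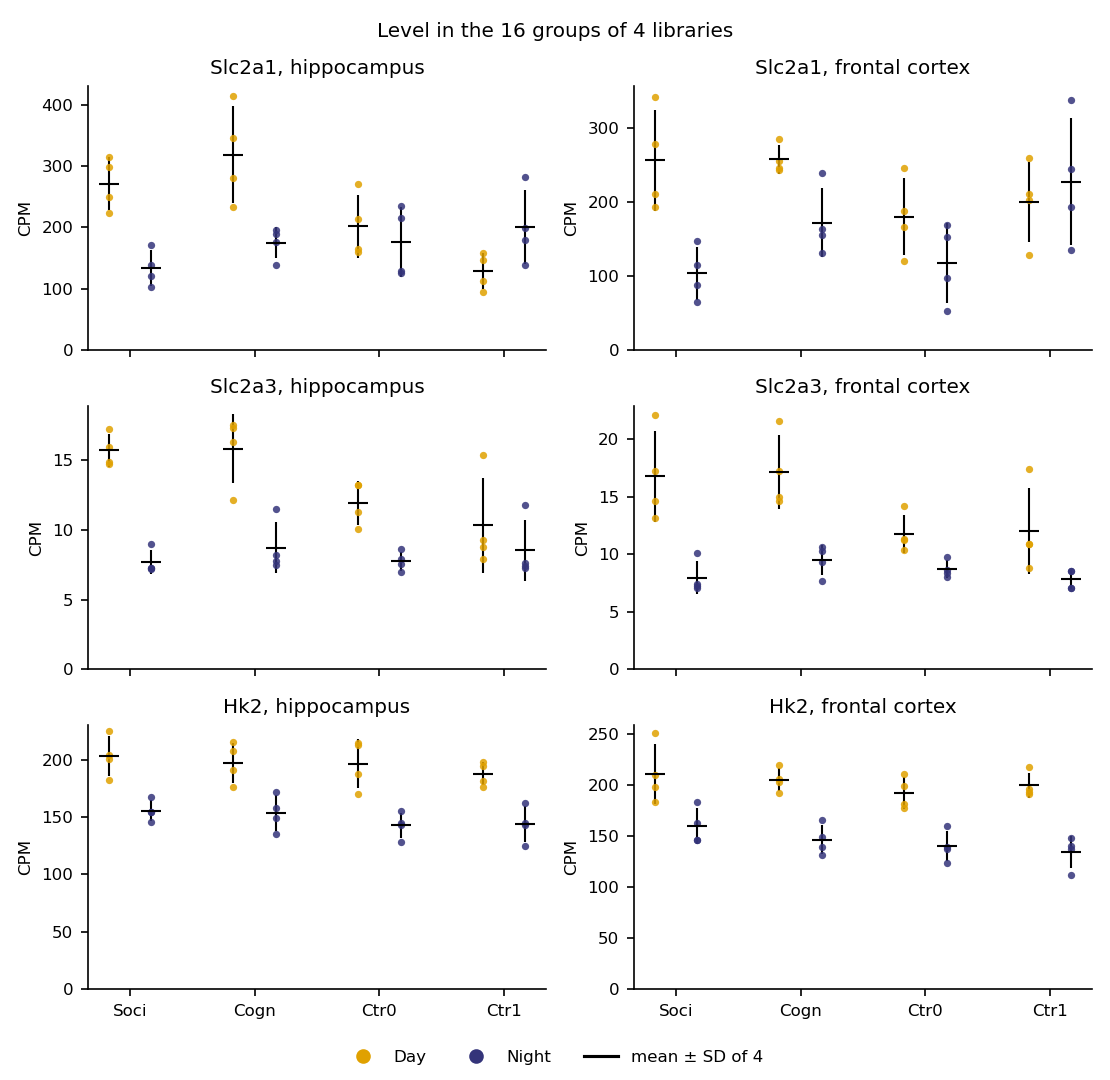
CPM of Slc2a1, Slc2a3 and Hk2 in the 16 groups, with each of 4 libraries as a point and the mean ± SD. Hk2 is higher in Day in all 4 conditions of both regions, Slc2a3 is higher by more in Soci and Cogn than in Ctr0 and Ctr1 in its means, and Slc2a1 separates the phases in Soci and Cogn.

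The 6 genes with the lowest p between phases, Hk2, Slc2a3, Pdk4, Pfkp, Slc16a1 and Tpi1, over both regions were followed through all conditions. For each of them the Day mean differed from the Night mean in the same direction in all 8 pairs of groups. The genes were picked by p in these same libraries, so the choice favoured this sameness and it is a description only. Hk1, Hk3, Slc2a5, Pfkm, Pfkfb2 and Slc16a3 also kept 1 direction in all 8 pairs. Hk2 in hippocampus had Day means between 188 and 203 CPM and Night means between 143 and 156, and the 4 libraries of the phases did not overlap in 4 of 4 conditions there and in 3 of 4 in frontal cortex. Its log2 difference of means ran from 0.36 to 0.57 over the 8 pairs. For Slc2a3 it ran from 0.28 in hippocampal Ctr1 to 1.08 in cortical Soci, with no overlap in 7 of 8 pairs. Day means of Slc2a3 in hippocampus were 15.7 ± 1.17 CPM in Soci, 15.8 ± 2.49 in Cogn, 11.9 ± 1.57 in Ctr0 and 10.3 ± 3.40 in Ctr1 (SD, n = 4), and Night means lay between 7.69 and 8.73. In frontal cortex the Day means of Slc2a3 were 16.8 ± 3.96, 17.1 ± 3.21, 11.8 ± 1.65 and 12.02 ± 3.72 in the same order, and Night means lay between 7.82 and 9.48. The test of a difference among conditions in its change gave an unadjusted edgeR p of 0.0335 and an adjusted p of 0.999 in hippocampus.

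Among the falls, Pdk4 differed by log2 -1.69 to -0.28 over the 8 pairs, Pfkp by -1.09 to -0.52, Slc16a1 by -1.35 to -0.26 and Tpi1 by -0.72 to -0.03. Slc16a1 in Night averaged 36.1 ± 14.8 CPM in Soci, 40.1 ± 12.3 in Cogn, 49.4 ± 11.0 in Ctr0 and 54.6 ± 16.2 in Ctr1 in hippocampus (SD, n = 4), and 30.4 ± 4.39, 38.6 ± 10.5, 42.0 ± 20.9 and 64.4 ± 19.0 in frontal cortex. Day means of Slc16a1 lay between 21.4 and 28.6 CPM. The Day and Night libraries of Pfkp did not overlap in 2 of 8 pairs, those of Slc16a1 in 3, those of Tpi1 in 2 and those of Pdk4 in 5.

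Other genes of these pathways, 68 on lists drawn up with earlier results of these data known, showed rises and falls. In hippocampus 60 were tested, of which 17 were higher and 13 lower in Day, and in frontal cortex 58, of which 17 were higher and 10 lower. The shares of all genes were 23.4% higher and 18.8% lower in hippocampus and 20.6% and 21.3% in frontal cortex, against which the counts of the short lists that follow are to be read. Their median log2 change was 0.01 and 0.06, where all genes had 0.02 and -0.02. Of other isoforms and transporters, 2 of 15 tested were higher and 6 lower in Day in hippocampus and 2 and 5 of 13 in frontal cortex. The pyruvate carrier Slc16a7 was higher by log2 0.47 ± 0.07 (SE) in hippocampus and 0.38 ± 0.06 in frontal cortex, and Aldoc, the aldolase of astrocytes and neurons, was lower by log2 -1.02 ± 0.22 and -1.52 ± 0.29. Slc2a12 differed by log2 -2.66 ± 0.39 (SE, edgeR adjusted p = 2.11e-06) in hippocampus and by -0.64 ± 0.38 in frontal cortex, where it did not pass. Choroid plexus markers were also lower in Day in hippocampus, and their part in this change was not tested. Values of these list genes and those below come from the fit without marker terms.

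The pentose phosphate pathway branches from glycolysis and yields NADPH. Of its 8 genes, 2 were higher and 1 lower in Day in hippocampus and 3 higher in frontal cortex. G6pdx, its entry enzyme, was higher by log2 0.39 ± 0.05 (SE) in hippocampus and 0.43 ± 0.08 in frontal cortex, Rpe by 0.27 ± 0.05 and 0.14 ± 0.05, and transketolase Tkt was lower in hippocampus by -0.21 ± 0.05, with -0.09 ± 0.06 in frontal cortex. Around pyruvate entry, 3 of 12 genes were higher and 1 lower in hippocampus and 5 and 1 in frontal cortex. Pdp1, the phosphatase that reactivates pyruvate dehydrogenase, was higher by 0.37 ± 0.07 and 0.36 ± 0.10, Gpd1l by 0.19 ± 0.03 and 0.16 ± 0.05, and pyruvate carboxylase Pcx, abundant in astrocytes, was lower by -0.58 ± 0.09 and -0.39 ± 0.11. Of the 7 glycogen genes, 1 was higher and 3 lower in hippocampus and 1 and 2 in frontal cortex. Glycogen synthase Gys1 was lower by -0.57 ± 0.07 and -0.34 ± 0.07, the phosphorylase Pygb by -0.28 ± 0.06 and -0.17 ± 0.07, and Pgm1 by -0.15 ± 0.06 in hippocampus, with -0.10 ± 0.05 in frontal cortex.

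Of the genes that regulate the hypoxia factor, 3 of 7 tested were higher in Day in hippocampus and 2 in frontal cortex, with none lower, where 23.4% and 20.6% of all genes were higher. Hif3a was higher by log2 1.04 ± 0.22 (SE) in hippocampus and 0.85 ± 0.21 in frontal cortex, and Arnt and Hif1an by 0.20 ± 0.04 and 0.17 ± 0.04 in hippocampus, with 0.06 ± 0.03 and 0.07 ± 0.04 in frontal cortex. Genes induced by hypoxia had 6 higher and 2 lower of 11 tested in hippocampus and 4 and 2 in frontal cortex. The collagen prolyl hydroxylase P4ha1 was higher by 0.96 ± 0.06 and 0.96 ± 0.08, with adjusted p of 7.21e-14 and 9.99e-11 in edgeR, a larger change than any of the rises among the 32 genes in these fits. Bnip3l was higher by 0.30 ± 0.05 and 0.24 ± 0.06, and Mxi1 by 0.20 ± 0.05 in hippocampus, with 0.10 ± 0.05 in frontal cortex.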

How the data were processed

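RNA of CD11b-captured cells was sequenced from 64 libraries, 4 for each of 16 groups by region, phase and condition. The authors deposited raw counts per gene, made with STAR 2.7.3a and featureCounts of Subread 2.0.0 on GRCm38.p5, and how reads with several matches were counted is not given in the sources used here. Of 49671 genes 49412 had a symbol in GENCODE M21, which also gave exon lengths. Genes within introns on the strand opposite to their host held a median of 1.56 counts per kb against 929 on the same strand, so the counting used strand. Replicates of each group differed by more than sampling noise, with a smallest chi-square per degree of freedom of 8.26 over 96 pairs.

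CPM were scaled by TMM over the 64 libraries, with a prior count of 2 for logarithms. Genes were filtered with filterByExpr and tested with edgeR 4.0.16 (R 4.3.3) by the quasi-likelihood test, with Benjamini-Hochberg adjustment over all genes tested and a threshold of 0.05. Day and Night were compared within each region, the regions and their difference in change over all libraries, and the 4 conditions within each region. On simulated counts with 200 genes changed 2-fold, the comparison of phases recovered 200 of 200 among 15623 genes in hippocampus, with 11 false calls, and the test of conditions in the change recovered 136 of 200 among 16568. The simulation gave every gene a dispersion of 0.03 and changed only genes over 4 CPM, so recovery of smaller changes was not tested. Alternatives covered scaling, filter, DESeq2 1.42.0, abundant genes, each replicate, the replicate number as a block, marker terms, condition and control libraries. The 32 genes and all lists were chosen with earlier results of these data known. Full values were given for the 12 genes per region with the largest change past the threshold at an average log2 CPM of at least 2, for the 6 largest region differences, for all differences in change past the threshold, by group for the 6 genes with the lowest p, and for at most 3 genes of each other list. Copies were sought with blastn 2.17.0+.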

Additional observations from a re-analysis of the deposited data

Results flagged for a closer look

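In 9 of the 96 groups of 4 libraries examined for the 6 genes, the highest library stood apart from the other 3 by Dixon's test, where chance gives about 4.8. For Slc2a3 these were replicate 1 of hippocampus Night Soci with 9.007 CPM (others 7.22 to 7.285), replicate 3 of hippocampus Night Ctr1 with 11.76 (7.282 to 7.656) and replicate 3 of frontal cortex Night Soci with 10.1 (7.08 to 7.445). For Slc16a1 they were replicate 2 of hippocampus Night Soci with 58.11 CPM (27.21 to 31.6) and replicate 3 of frontal cortex Day Soci with 42.25 (17.68 to 21.07). Replicate 2 of hippocampus Night Soci was also high for Pdk4, with 3.959 CPM (others 1.108 to 1.335). Pfkp had 35.06 CPM in replicate 1 of frontal cortex Night Cogn (12.36 to 14.31). Tpi1 had 22.24 CPM in replicate 3 of hippocampus Day Ctr1 (19.25 to 19.42) and 35.01 in replicate 4 of frontal cortex Night Ctr0 (22.34 to 23.91).

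The change between phases differed between regions by edgeR's interaction test for Pgk1 (log2 -0.5754, hippocampus minus frontal cortex), Pdk3 (-0.3627), Aldoa (-0.3062) and Pkm (-0.2629).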

How the results depend on the processing

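Counts of calls are given as the 32 genes, the other pathway genes and all genes. In hippocampus 21, 30 and 6550 were called between phases. Library totals alone left 4288 of all genes, the marker terms 10, 15 and 3000, control libraries alone 19 pathway genes and 4318 of all, and libraries numbered 4 alone, an alternative chosen after seeing the data, 1, 1 and 118. Leaving out 1 replicate gave 20 to 24, 21 to 32 and 4319 (without replicate 1) to 7356. In frontal cortex 12, 27 and 6267 were called. Library totals alone left 4061 of all genes, the marker terms 12 pathway genes and 3113 of all, control libraries alone 7, 11 and 3476, and leaving out 1 replicate 11 to 12, 17 (without replicate 2) to 26 and 3941 (without replicate 2) to 6403. For the regions 6, 9 and 2668 were called. Library totals alone gave 1 and 14, the marker terms 0, 0 and 653, number 4 alone 0, 0 and 0, and leaving out 1 replicate 1 (without replicate 2) to 7, 4 to 14 and 1322 to 3516. For the difference in change 4 genes and 191 of all were called. Library totals alone, no count filter and the marker terms each left 1 gene, number 4 alone 0 and 0, and leaving out 1 replicate 0 to 2 and 15 (without replicate 2) to 224. For the conditions, 0 genes of all were called in either region. Library totals alone gave 8 and 3814 of all in hippocampus, DESeq2 6 of all there and 1 in frontal cortex, no count filter 1 in frontal cortex, and leaving out 1 replicate 0 to 328 (without replicate 1) in hippocampus. For the change by condition DESeq2 gave 1 gene and 12 of all in hippocampus and 9 of all in frontal cortex, where 1 was called and library totals alone, leaving out abundant genes, the block and leaving out any replicate gave 0. The cause of these shifts was not tested.

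Among values of genes that had passed, the direction turned for 5, namely Slc2a1 in hippocampus over control libraries (-0.20), Pgam1 (0.0250) and Eno1 (0.0272) in hippocampus and Pfkm (0.0214) in frontal cortex with the marker terms, and the region difference of Pkm with library totals alone (-0.0112). Over all 32 genes, passed or not, the sign differed from the reported one in 31 of 448 values in hippocampus, 27 of 416 in frontal cortex, 59 of 416 for the regions and 33 of 384 for the difference in change.

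Libraries share a replicate number only, since no label ties them and not every same-numbered pair deviated together. Deviations of same-numbered Day and Night libraries correlated with a median of -0.03 in hippocampus and 0.05 in frontal cortex, the lowest being -0.50. Between conditions of 1 phase in hippocampus the median was 0.131 for the same number, with 27 of 48 pairs over 0.1, and -0.0427 for different numbers, with 40 of 144. With the replicate number as a block, 21 genes in hippocampus, 12 in frontal cortex, 6 for the regions and 4 for the difference in change passed, and 2 of all genes for the conditions in hippocampus. With a block by phase, condition and number, 5 genes and 14 pathway genes passed for the regions. Depth limits Pdk4 most, whose lowest count was 3.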
